A study of Mus musculus with 6 samples.

Results

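The genes described here encode the SR proteins, the hnRNPs and 5 small families of neuronal and tissue-regulated splicing factors, measured in the mouse hippocampus by RNA sequencing. They were chosen by symbol, with earlier results of these data known. The rule covered the genes named Srsf with a number and all Hnrnp genes. It also covered Rbfox1 to Rbfox3, Nova1 and Nova2, Celf1 to Celf6, Ptbp1 to Ptbp3 and Elavl1 to Elavl4. This rule took 50 of the 25239 gene symbols listed, made up of 11 SR genes, 21 hnRNP genes, 3 Rbfox, 2 Nova, 6 Celf, 3 Ptbp and 4 Elavl genes. The comparison was between 3 wild type male mice (Ube3am+/p+, here WT) and 3 male Ube3am-/p+ mice, all C57BL/6 and 6 to 8 weeks old, with 1 library from the hippocampus of each mouse. The Ube3am-/p+ mouse, a model of Angelman syndrome, lacks a functional maternal Ube3a gene in every tissue and keeps the paternal copy, which neurons largely silence. Because the RNA came from whole hippocampus, fewer cells of a type and less RNA per cell cannot be told apart, and p-values measure the spread between these mice.

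Pre-mRNA splicing joins exons, and which exons are kept depends on proteins that bind the transcript near the splice sites. SR proteins carry a domain rich in arginine and serine, bind enhancer sequences in exons and generally favour exon inclusion, while many hnRNPs bind silencer sequences and counteract them. Rbfox, Nova, Celf, Ptbp and Elavl proteins bind short motifs of their own and set exon choice according to tissue and stage, and the neuronal members of these families are known for the exon programs of brain. Many of these genes also control their own level through exons that lead to decay of their transcript, so that their mRNA need not follow their protein.

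Of these genes Elavl1, which encodes the widely expressed RNA stabilizing protein HuR, was the only one to pass the test across all genes, and was lower in Ube3am-/p+ mice. As 1 of 49 it matches the share of all genes called, 2.01% (1.02% higher and 0.99% lower). The call was lost once GC content and length were corrected for, with the replicate number as a block, and without any 1 of 4 of the 6 mice. Ube3a, the targeted gene, was not called in any of these settings either. Fold changes differed within the Rbfox, Nova, Celf, Ptbp and Elavl families, and all 3 Ptbp genes lay below 0. The member of highest GC content held the highest fold change in 5 of 5 families, and in 2 of 5 after the GC and length correction. The member of lowest GC content held the lowest in 3 of 5, and in 1 of 5 after it. Across all genes of these libraries the fold change also ran with GC content. Once each library was corrected for GC content and transcript length, 19 of the 20 hnRNP genes tested had positive log2 fold changes, against 51.7% of all genes, and none was called, against 0.613% of all genes. Of the other splicing genes tested, 83 of 127 (65.4%) were positive after it, from 41.2% to 89.5% by list.

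Counts on genes ranged from 7293272 to 8675252 per library in WT mice and from 8871052 to 11314409 in Ube3am-/p+ mice, and the splicing factor genes took 0.894% to 0.938% of them. Values per mouse are CPM, counts scaled to a common total of gene counts per library, and log2 fold changes are Ube3am-/p+ over WT from edgeR's quasi-likelihood fit with TMM scaling. A gene was called at a Benjamini-Hochberg adjusted p below 0.05 over the 14445 genes tested together with a fold change above 1.2. Ube3a, the targeted gene, was at 104, 141 and 151 CPM in WT mice and 96.8, 82.9 and 80.6 CPM in Ube3am-/p+ mice 1, 2 and 3, a log2 fold change of -0.58 ± 0.12 (SE, edgeR adjusted p = 0.0363) that was -0.18 (edgeR adjusted p = 0.316) after the GC and length correction. The first principal component held 42.4% of the variance and placed both mice numbered 1 together, at -2.29 (WT) and -1.43 (Ube3am-/p+), while WT mice 2 and 3 lay at 20.2 and 29.6 and Ube3am-/p+ mice 2 and 3 at -20.5 and -25.6. The deviation of a gene from its mean over the mice also ran with GC content, opposite in sign to this component in mice 2 and 3 of each genotype. Spearman's rho across genes was 0.045, -0.506 and -0.571 in WT mice and 0.059, 0.526 and 0.528 in Ube3am-/p+ mice. All 8 hippocampal neuron markers were detected, down to Zbtb20 at a mean of 2.77 CPM, and no marker of the 10 cell type lists was at 0. Markers of meninges and fibroblasts summed to 236 to 332 CPM in WT and 338 to 562 CPM in Ube3am-/p+ mice, with 8 of 8 higher, and those of choroid plexus and ependyma to 108 to 2158 and 120 to 2256 CPM, with 6 of 6 higher. Pan-neuronal markers summed to 6373 to 6964 CPM in WT and 5897 to 6237 CPM in Ube3am-/p+ mice, with 4 of 8 higher, and astrocyte markers to 4505 to 5029 and 3912 to 4237 CPM, with 4 of 6 lower. Oligodendrocyte markers summed to 7954 to 8070 CPM in WT and 6641 to 7568 CPM in Ube3am-/p+ mice, with 3 of 6 higher. The sums of interneuron, oligodendrocyte precursor, microglia and endothelial markers were also lower in Ube3am-/p+ mice without overlap. Of these markers 3 of 6, 1 of 4, 4 of 7 and 3 of 6 were higher, so the lower sums were not shared by all genes of a list. The part of these cell types in the results below was not tested.

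The paralogs in these families encode nearly the same RNA-binding domains with different bases, which is shown here by coding sequence for the Rbfox genes because their fold changes and GC contents differ. The 3 stretches of 147 bases below were read from GENCODE M21 transcripts on GRCm38 and encode the same 49 residues, part of the RNA recognition motif, with capitals at the 36 positions where the genes are not all alike, 34 of them at the last base of a codon. The stretch lies in exons 3 to 5 of a Rbfox1 transcript (chr16:7277100-7292208, plus strand), exons 4 to 6 of a Rbfox2 transcript (chr15:77105646-77116989, minus strand) and exons 6 to 8 of a Rbfox3 transcript (chr11:118502911-118505691, minus strand).
Rbfox1: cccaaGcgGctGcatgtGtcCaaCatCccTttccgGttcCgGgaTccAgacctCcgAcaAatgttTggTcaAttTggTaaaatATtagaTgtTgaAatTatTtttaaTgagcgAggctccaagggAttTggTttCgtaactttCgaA
Rbfox2: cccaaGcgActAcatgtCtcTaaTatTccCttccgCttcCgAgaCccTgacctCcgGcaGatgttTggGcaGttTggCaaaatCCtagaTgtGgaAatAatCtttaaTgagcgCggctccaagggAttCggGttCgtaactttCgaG
Rbfox3: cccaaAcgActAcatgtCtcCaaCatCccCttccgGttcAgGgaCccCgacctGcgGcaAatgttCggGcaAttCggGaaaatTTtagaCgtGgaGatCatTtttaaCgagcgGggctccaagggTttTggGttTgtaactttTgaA
GC content was 43.5%, 49.7% and 49.7% over these stretches in Rbfox1, Rbfox2 and Rbfox3, and 45.0%, 51.5% and 58.6% over the longest annotated transcript. In the same way 32 residues shared by the 3 neuronal Elavl genes are encoded by 96 bases that differ at 26 positions, 24 of them at the last base of a codon, printed here because these genes lay on both sides of 0. The stretches lie on the minus strand of chromosome 4 for Elavl2 (chr4:91264071-91281234, exons 4 and 5) and Elavl4 (chr4:110213207-110226565, exons 3 and 4) and of chromosome 9 for Elavl3 (chr9:22026587-22036332, exons 3 and 4).
Elavl2: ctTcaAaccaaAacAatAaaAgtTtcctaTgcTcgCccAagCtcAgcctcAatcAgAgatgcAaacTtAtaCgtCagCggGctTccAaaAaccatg
Elavl4: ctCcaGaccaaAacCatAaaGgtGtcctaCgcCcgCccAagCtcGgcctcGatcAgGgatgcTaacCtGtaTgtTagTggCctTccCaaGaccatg
Elavl3: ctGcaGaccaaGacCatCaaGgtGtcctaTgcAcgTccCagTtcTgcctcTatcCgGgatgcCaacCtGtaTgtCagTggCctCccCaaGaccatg
GC content of the longest transcript was 38.5% in Elavl2, 38.9% in Elavl4 and 54.1% in Elavl3. Over the printed stretches it was 43.75%, 55.2% and 56.25%. Elavl4 was thus close to Elavl3 over the stretch and close to Elavl2 over the longest transcript.

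Of the 50 splicing factor genes, 49 passed the filter on low counts, and 1 of them was called (2.01% of all genes tested were called). The member that did not pass was Hnrnpa1l2-ps2, a pseudogene by name, at 0 to 0.231 CPM. Beyond the calls, 17 of 49 (34.7%) had an unadjusted p below 0.05, 8 with positive and 9 with negative fold changes, against 24.6% of all genes tested. The CPM of the genotypes did not overlap for 16 of 49 (32.7%), 5 higher and 11 lower in Ube3am-/p+ mice, against 25.0% of all genes. Over the 49 genes the median was -0.02 on the log2 scale, beside 0.0025 for all genes tested, and the values ran from -0.46 to 0.51 with 23 positive and 26 negative. Without WT mouse 1 the number called was 14, beside 17.6% of all genes, and without Ube3am-/p+ mouse 1 it was 12, beside 12.5%. Without any of the other 4 mice it was 0, beside 0 of all genes in 3 of these fits and 0.0137% without Ube3am-/p+ mouse 3, and without both mice numbered 1, an alternative chosen after seeing the data, it was 19 (9 higher, 10 lower), beside 28.3% of all genes called in that fit. DESeq2 called 7 of them, 3 higher and 4 lower (Celf6, Hnrnpab and Hnrnpul1 higher, Elavl1, Elavl4, Hnrnpa3 and Srsf11 lower), and 9.96% of the genes it tested (5.14% higher and 4.82% lower).

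**Figure D1:**
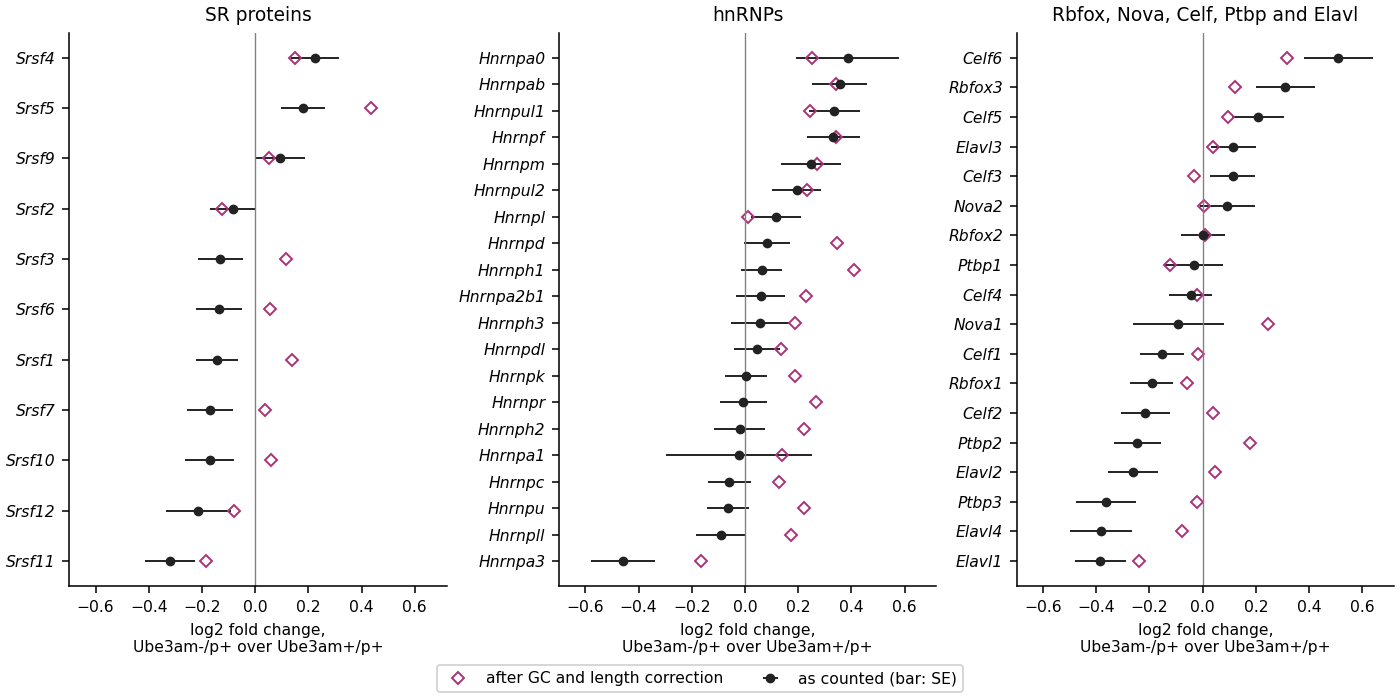
Log2 fold change, Ube3am-/p+ over WT, of the 49 splicing factor genes tested, by family, as counted (filled circles, bars are SE, edgeR) and after correction for GC content and transcript length (open diamonds, no bars). As counted, the SR genes lie mostly left of 0 and the hnRNP genes on both sides, and after the correction 19 of 20 hnRNP genes lie right of 0.

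None of the 11 SR genes was called. They had a median log2 fold change of -0.14, with 3 positive and 8 negative, and the genotypes did not overlap for 7 (63.6%, against 25.0% of all genes), 2 higher and 5 lower. An unadjusted p below 0.05 was reached by 3 of 11 (27.3%), against 24.6% of all genes. After the GC and length correction the median was 0.056 and 8 of 11 were positive.

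Among the SR genes with lower values, Srsf11, an SR-related factor that takes part in microexon inclusion in neurons, was at 191, 227 and 239 CPM in WT mice and at 184, 173 and 162 CPM in Ube3am-/p+ mice, a log2 fold change of -0.32 ± 0.09 (SE, edgeR adjusted p = 0.0647). Every WT mouse lay above every Ube3am-/p+ mouse, but WT mouse 1 was only slightly above Ube3am-/p+ mouse 1. After the correction the value was -0.19 (edgeR adjusted p = 0.208). Srsf12, an SR protein that opposes other SR proteins, was at 25.8, 32.5 and 27.7 CPM against 23.1, 25.3 and 24.8 CPM, with -0.21 ± 0.12 (SE, edgeR adjusted p = 0.286). Srsf7, which also takes part in mRNA export, was at 105, 114 and 109 CPM against 93.1, 97.0 and 97.6 CPM, and its value of -0.17 (edgeR adjusted p = 0.226) was 0.04 after the correction. Srsf1, the prototype of the family, was at 225, 242 and 252 CPM against 206, 219 and 218 CPM, and its value of -0.14 (edgeR adjusted p = 0.278) was 0.14 after the correction. For both the groups did not overlap, and the sign of the difference depended on the correction. Srsf3, Srsf6 and Srsf10, which also lay below 0 as counted (-0.13, -0.14 and -0.17), were at 0.11, 0.06 and 0.06 after it.

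Srsf5 and Srsf4 were the 2 SR genes with higher values and no overlap. Srsf5, an SR protein known as a growth response gene, is named by the rule for the most CPM in the family before division by length (160 CPM per kb), with 245, 213 and 220.2 CPM in WT mice and 247, 255 and 258 CPM in Ube3am-/p+ mice. WT mouse 1 was just below Ube3am-/p+ mouse 1, and the log2 fold change of 0.18 ± 0.08 (SE, edgeR adjusted p = 0.192) was 0.44 (edgeR adjusted p = 0.0652) after the correction, the highest corrected value of the 49 genes. Its GC content of 40.1% was the lowest of the SR genes. Srsf4, another shuttling SR protein, was at 73.4, 65.7 and 69.0 CPM against 82.0, 75.8 and 82.2 CPM, with 0.22 ± 0.09 (SE, edgeR adjusted p = 0.146) and 0.15 after the correction. Of the 75-base stretches of the Srsf4 transcript 63.8% also occur in 1 other annotated gene, and an antisense gene shares 1532 bp with its exons, so its count is uncertain. Srsf9 and Srsf2 were at 0.09 and -0.08.

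The hnRNP genes spanned -0.46 to 0.39 with a median of 0.058, with 13 of 20 positive, and none was called by edgeR. Hnrnpul1, an hnRNP U-like protein with roles in transcription and DNA repair, was at 124, 102 and 101 CPM in WT mice and 137, 134 and 137 CPM in Ube3am-/p+ mice, a log2 fold change of 0.34 ± 0.09 (SE, edgeR adjusted p = 0.0625) and 0.24 (edgeR adjusted p = 0.122) after the correction. Hnrnpf, which binds runs of G, was at 42.1, 37.1 and 38.8 CPM against 48.4, 47.7 and 50.6 CPM, with 0.33 ± 0.10 (SE, edgeR adjusted p = 0.0692) as counted and 0.34 (edgeR adjusted p = 0.0717) after the correction. These were the only hnRNP genes without overlap between the genotypes, 10% of the family against 25.0% of all genes, and for both WT mouse 1 was the highest WT mouse. Of the stretches of the Hnrnpf transcript 61.7% occur in 10 other genes. Hnrnpu, the scaffold protein of nuclear RNA, is named by the rule for the most CPM in the family before division by length (68.8 CPM per kb, against 213 for Hnrnpa2b1). It was at 551, 544 and 527 CPM against 535, 493 and 505 CPM, and its value of -0.06 (edgeR adjusted p = 0.654) was 0.22 after the correction (edgeR adjusted p = 0.204).

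Other hnRNP genes are named because their values were seen to stand apart. Hnrnpa3, a relative of hnRNP A1, was at 105, 138 and 139 CPM in WT mice and 108, 83.7 and 83.6 CPM in Ube3am-/p+ mice, with -0.46 ± 0.12 (SE, edgeR adjusted p = 0.0566) and -0.17 after the correction. WT mouse 1 lay below Ube3am-/p+ mouse 1, and mice 2 and 3 of each genotype set the difference. Its transcript shares 90.3% of its 75-base stretches with 39 other genes, and reads with more than 1 alignment, which are counted on no gene, made up 4.15% to 5.77% of reads in WT and 3.71% to 4.06% in Ube3am-/p+ libraries. Hnrnpab, which binds RNA for transport in neurons, was at 124, 105 and 108 CPM against 122, 154 and 150.2 CPM, with 0.36 ± 0.10 (SE, edgeR adjusted p = 0.0679) and 0.34 after the correction. Its exons share 809 bp with an antisense gene, and 25.9% of its stretches occur in 1 other gene. Hnrnpa0, an hnRNP that binds AU-rich elements, was at 184, 131 and 139.6 CPM against 149, 201 and 237 CPM, and its value of 0.39 ± 0.19 had an edgeR adjusted p of 0.262. After the correction it was 0.25. Mouse 1 lay higher in WT and mice 2 and 3 lay higher in Ube3am-/p+. Hnrnpa1, a major hnRNP in most tissues, was listed at only 2.93 to 4.75 CPM, and 44.4% of its stretches occur in 14 other genes, so that its level is uncertain.

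After the correction for GC content and length, nearly all hnRNP genes lay above 0. The median of the 20 was 0.225, 19 were positive, with Hnrnpa3 the exception, and 10 had an unadjusted p below 0.05, 9 of them positive, against 13.9% of all genes (7.96% positive and 5.94% negative). For all 49 genes the median was 0.12, 37 (75.5%) were positive against 51.7% of all genes, and 16 (32.7%) had an unadjusted p below 0.05, 13 positive and 3 negative. None of the 49 was called in that fit, in which 0.613% of all genes were called (0.401% higher), and the lowest adjusted p by edgeR was 0.0502, for Hnrnpd, which controls mRNA decay as AUF1. Hnrnpd was at 149, 149 and 149 CPM in WT mice and 150.2, 170.1 and 146 CPM in Ube3am-/p+ mice, with 0.08 as counted and 0.35 after the correction. Hnrnph1, which binds runs of G, was at 241, 230.0 and 225 CPM against 236, 241 and 241 CPM, with 0.06 as counted and 0.41 after it (edgeR adjusted p = 0.0652). Their CPM overlapped between the genotypes, and the correction sets them against other genes of the same low GC content (41.7% and 37.1%), whose median lay below 0. With GC content alone the hnRNP median was 0.224, and with the longest coding transcript 0.226, with 19 of 20 positive in each. In the latter Hnrnpd was called, the only one of the 49.

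The Rbfox genes encode splicing regulators that bind GCAUG and mark neurons. CPM per kb is CPM divided by the median length of the annotated coding transcripts of a gene. On this scale Rbfox1 was the highest of the 49 genes at a mean of 411, with Rbfox2 at 197 and Rbfox3 at 122. The order of Rbfox2 and Rbfox3 depends on the length used. Their medians are 1765 and 2479.5 bp, and their longest transcripts have 6907 and 3150 bp. Rbfox1, which regulates exons of synaptic genes, was at 617, 619 and 625 CPM in WT mice and 551, 503 and 555 CPM in Ube3am-/p+ mice without overlap, with -0.19 ± 0.08 (SE, edgeR adjusted p = 0.160) and -0.06 after the correction. Rbfox2, which is also expressed outside the nervous system, was at 372, 354 and 323 CPM against 356, 347 and 336 CPM, with a log2 fold change of 0.0023. Rbfox3, the neuronal antigen NeuN, was at 325, 252 and 239 CPM against 312, 328 and 360.1 CPM, with 0.31 ± 0.11 (SE, edgeR adjusted p = 0.106) and 0.12 after the correction. WT mouse 1 lay inside the range of the Ube3am-/p+ mice. The 3 values stood in the order of GC content, from Rbfox1 at 45.0% to Rbfox3 at 58.6%.

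The Nova genes encode KH-domain proteins that bind YCAY clusters in neurons. Nova1 was at 34.7, 45.4 and 43.6 CPM in WT mice and 51.1, 32.2 and 32.1 CPM in Ube3am-/p+ mice, so that mouse 1 was the lowest of WT and the highest of the 6 in Ube3am-/p+, and its value of -0.09 ± 0.17 (SE, edgeR adjusted p = 0.781) was 0.25 after the correction. Nova2 was at 181, 157 and 137 CPM against 158, 162 and 180.4 CPM, with 0.09 ± 0.10 (SE, edgeR adjusted p = 0.613) and 0.0043 after the correction. Neither gene separated the genotypes. Without both mice numbered 1, Nova1 was at -0.45 (edgeR adjusted p = 0.00238) and Nova2 at 0.24 (edgeR adjusted p = 0.0378). The exons of Nova2 share 2652 bp with an antisense gene, and 30.2% of the stretches of its transcript occur in 1 other gene, so its count is uncertain.

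Among the Celf genes, whose proteins bind GU-rich elements in introns and 3′ ends, Celf6 had the highest log2 fold change of all 49 genes. It was at 17.8, 17.4 and 15.4 CPM in WT mice and 21.5, 25.8 and 23.8 CPM in Ube3am-/p+ mice, without overlap, with 0.51 ± 0.13 (SE) and an edgeR adjusted p of 0.0513, just outside the threshold. After the correction it was 0.32 (edgeR adjusted p = 0.212), and its level per kb was 7.54 CPM. Celf5 was at 415, 367 and 323 CPM against 395, 422 and 443 CPM, with 0.21 (edgeR adjusted p = 0.204) and 0.09 after the correction, and Celf3 at 276, 258 and 235 CPM against 271, 271 and 279.6 CPM, with 0.11 and -0.03 after it. For both neuronal genes the genotypes overlapped through WT mouse 1. Celf1, an ubiquitous regulator of splicing and mRNA decay, was at 311, 301 and 301 CPM against 291, 275 and 246 CPM without overlap, with -0.15 (edgeR adjusted p = 0.269) and -0.02 after the correction. Celf2, abundant in brain, was at 557, 586 and 592 CPM against 557, 479 and 440.3 CPM, with -0.22 (edgeR adjusted p = 0.162) and 0.04 after it. Celf4, which limits excitability of neurons by binding many synaptic mRNAs, was at 466, 501 and 483 CPM against 474, 468 and 447 CPM, with -0.05. The genotypes overlapped for Celf2 and Celf4 and not for Celf1, and Celf4, Celf2 and Celf1 had 180, 175 and 37.9 CPM per kb. The value of Celf2 rests on a median coding length of 3056 bp, while its longest transcript has 8856 bp. Of the 25884 bp of its exons, 1961 bp are shared with an antisense gene.

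The Ptbp genes encode the polypyrimidine tract binding proteins, of which Ptbp1 represses neuronal exons outside neurons and Ptbp2 does so during neuronal development. Ptbp2 was at 112, 120.2 and 130.1 CPM in WT mice and 98.0, 97.0 and 106 CPM in Ube3am-/p+ mice without overlap, with -0.25 ± 0.09 (SE, edgeR adjusted p = 0.114), and at 0.18 after the correction. Its GC content of 34.2% was the lowest of the 49 genes. Ptbp3, the relative known from blood cells, was at 37.0, 43.1 and 48.0 CPM against 33.8, 32.5 and 31.8 CPM without overlap, with -0.36 ± 0.11 (SE, edgeR adjusted p = 0.0729) and -0.02 after the correction. Ptbp1 was at 43.5, 39.9 and 52.7 CPM against 44.1, 42.5 and 44.3 CPM, with -0.03 (edgeR adjusted p = 0.878). The ranges of Ptbp1 overlapped, with WT mouse 3 above the other 5. The exons of Ptbp1 share 983 bp with antisense genes, and 22.5% of its stretches occur in 4 other genes, so its count is uncertain.

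The Elavl genes encode Hu proteins, which bind AU-rich and U-rich elements and stabilize mRNA in addition to regulating exons. Elavl1, on chromosome 8 from 4285382 to 4325413 of GRCm38, is the member expressed in most tissues. It was at 111, 126 and 124 CPM in WT mice and 102, 87.9 and 83.6 CPM in Ube3am-/p+ mice, means of 120.5 ± 8.07 and 91.2 ± 9.67 CPM (SD, n = 3 each). All WT mice lay above all Ube3am-/p+ mice, with mouse 1 the lowest in WT and the highest in Ube3am-/p+. Its log2 fold change of -0.38 ± 0.10 (SE) had an edgeR adjusted p of 0.0487, the only one of the 49 genes below the threshold, and was -0.24 (edgeR adjusted p = 0.118) after the correction. Leaving out each mouse in turn gave -0.46 to -0.33 with edgeR adjusted p from 0.00604 to 0.272, and the call was lost without mouse 2 or 3 of either genotype. Its exons share 204 bp with Ccl25 on the opposite strand and 1.98% of its stretches with 1 other gene.

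The 3 neuronal Elavl genes differed from one another. Elavl4, or HuD, was at 50.2, 65.6 and 67.3 CPM in WT mice and 50.5, 46.2 and 41.9 CPM in Ube3am-/p+ mice, with -0.38 ± 0.12 (SE, edgeR adjusted p = 0.0717) and -0.08 after the correction. The mice numbered 1 were alike, and mice 2 and 3 set the difference. Elavl2, or HuB, was at 76.1, 76.2 and 83.6 CPM against 71.7, 61.6 and 61.2 CPM without overlap, with -0.26 ± 0.09 (SE, edgeR adjusted p = 0.111), and at 0.05 after the correction. Elavl3, or HuC, was at 256, 231 and 225 CPM against 239, 253 and 268 CPM, with 0.12 ± 0.09 (SE, edgeR adjusted p = 0.421) and 0.04 after it. Elavl2 and Elavl4, of 38.5% and 38.9% GC, lay below 0 as counted and Elavl3, of 54.1%, above.

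**Figure D2:**
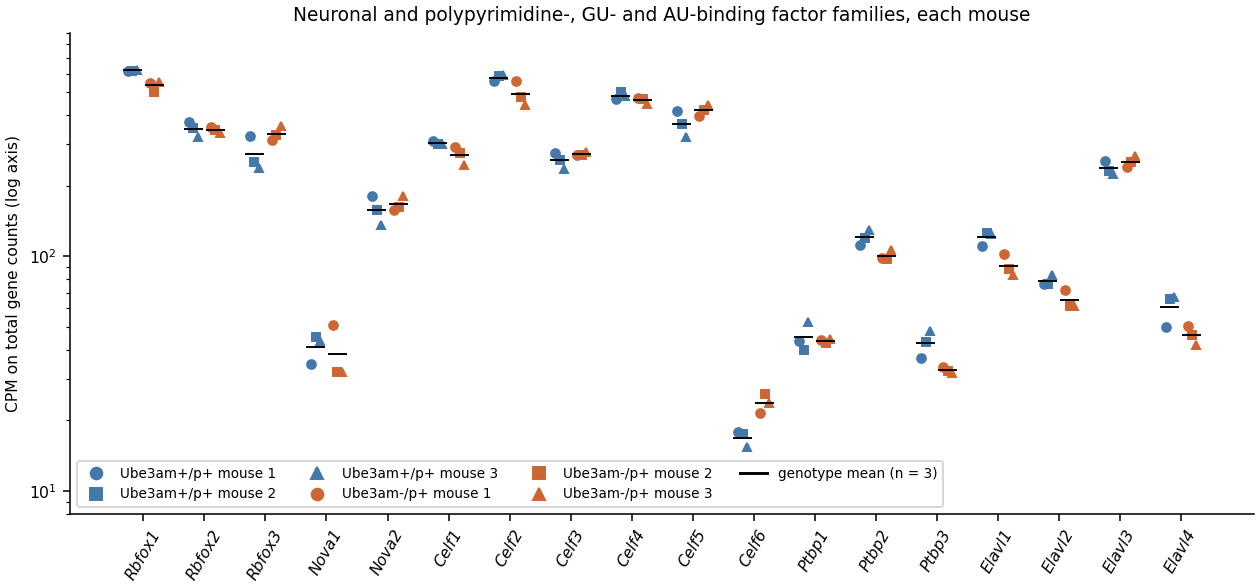
CPM (log axis) of the 18 Rbfox, Nova, Celf, Ptbp and Elavl genes in each of the 3 WT (blue) and 3 Ube3am-/p+ (orange) mice, with a symbol for each mouse number and a line at the mean of each genotype. Elavl1 runs from 111 to 126 CPM in WT and from 83.6 to 102 CPM in Ube3am-/p+ mice, and Celf6 from 15.4 to 17.8 and from 21.5 to 25.8 CPM.

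GC content and fold change were set side by side within these families. The member with the highest GC content (Rbfox3, Nova2, Celf6, Ptbp1 and Elavl3) had the highest log2 fold change in 5 of 5 families, and the member with the lowest GC content had the lowest in 3 of 5. The lowest fold changes of the Ptbp and Elavl families were those of Ptbp3 and Elavl1, not of Ptbp2 and Elavl2, which had the lowest GC content. After the correction these numbers were 2 and 1. Across the 49 genes the log2 fold change and GC content of the longest transcript had Pearson's r of 0.68 and Spearman's rho of 0.65, and across the 14201 genes with a GC content 0.57 and 0.62. These are correlations across genes of the same 6 libraries, and genes are not independent replicates. After the correction r and rho across the 49 genes were -0.09 and -0.13.

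**Figure D3:**
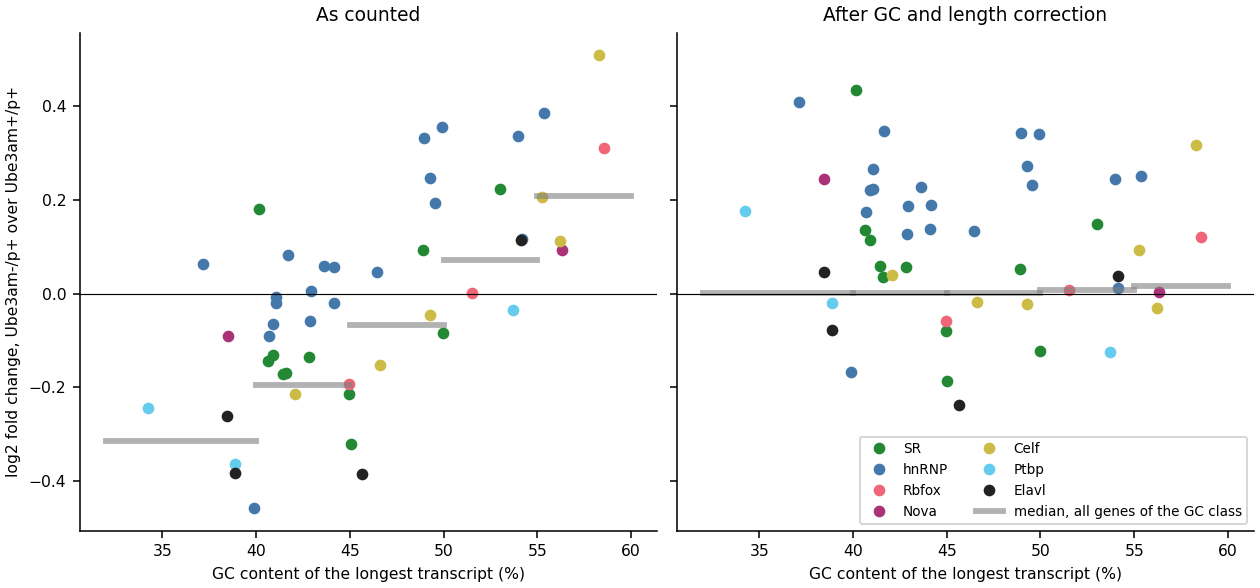
Log2 fold change, Ube3am-/p+ over WT, against GC content (%) of the longest annotated transcript for the 49 splicing factor genes (points, coloured by family), as counted (left) and after the correction (right), with the median of all genes of a GC class as a grey bar. As counted the values climb with GC content, from Ptbp2 at 34.2% and -0.25 to Rbfox3 at 58.6% and 0.31, and after the correction 19 of 20 hnRNP genes lie above 0.

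Grouped by GC content, 6 of the 7 splicing factor genes below 40% were negative with a median of -0.26, beside -0.32 for the 801 tested genes of that content. From 40% to 45%, the class that held 19 of them, 14 were negative with a median of -0.06 beside -0.20 for all genes. In the classes from 45% to 50% and from 50% to 55%, 6 of 11 and 5 of 6 were positive, with medians of 0.05 and 0.12 beside -0.07 and 0.07. At 55% and above 6 of 6 were positive with a median of 0.26 beside 0.21. The median of the splicing factor genes was above that of all genes in each of these 5 classes, which was not tested.

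**Figure D4:**
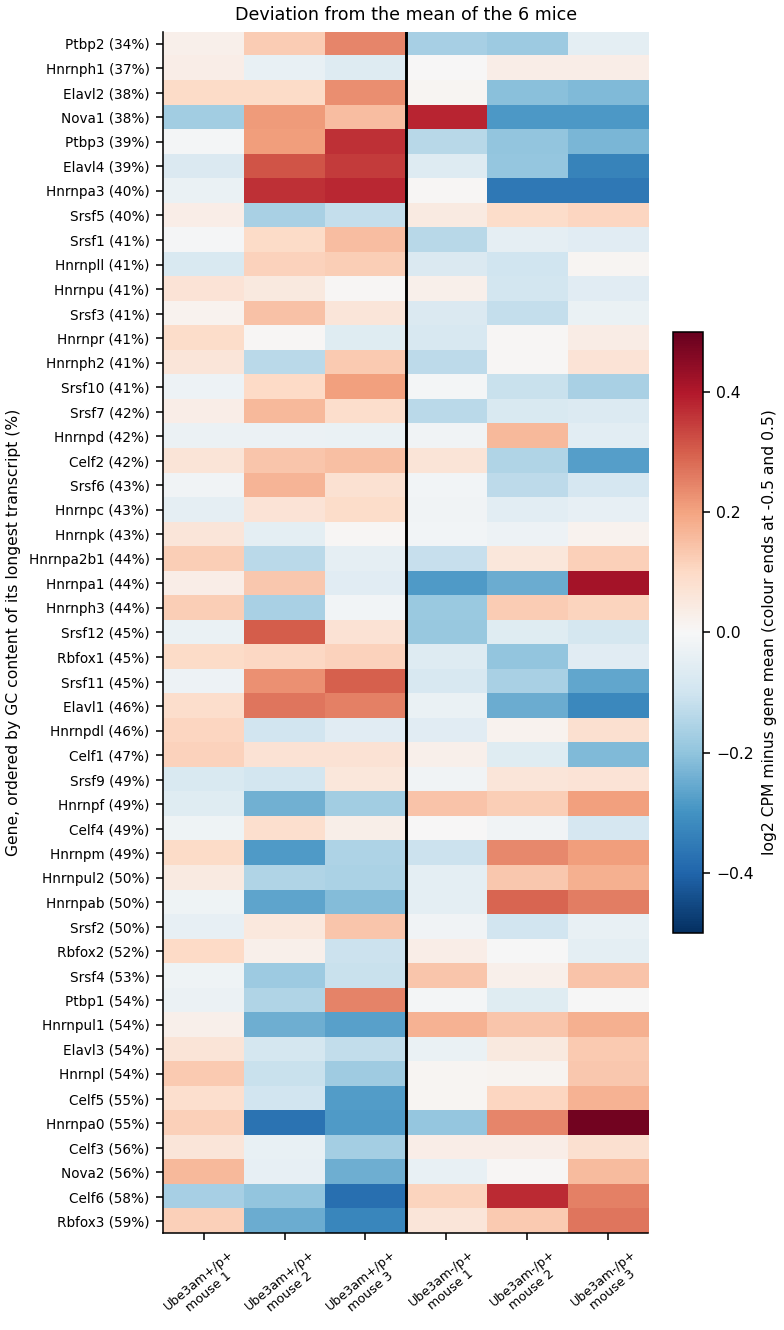
Deviation of log2 CPM from the mean of the 6 mice for the 49 genes, ordered by GC content of the longest transcript from 34% at the top to 59% at the bottom, by mouse. In mice 2 and 3 of each genotype low GC and high GC genes mostly have opposite colours, while both mice numbered 1 show no such gradient of that size.

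The same relation was seen mouse by mouse. Across the 49 genes the deviation of a mouse from the mean of the 6 mice had Spearman's rho with GC content of 0.27, -0.60 and -0.67 in WT mice 1, 2 and 3, and of 0.25, 0.58 and 0.61 in Ube3am-/p+ mice 1, 2 and 3. Genotype and this gradient move together in mice 2 and 3 and cannot be told apart there, and the mice numbered 1 hold only 1 mouse of each genotype.

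The other genes of the splicing machinery were taken from lists of 130 genes, of which 127 were tested. Of these 4 were called as counted, beside 2.01% of all genes tested. After the correction 3 were called (2 higher and 1 lower), beside 0.613% of all genes. As counted, the called genes Mbnl1, Mbnl2 and Qk were lower and Snrpd3 was higher in Ube3am-/p+ mice. An unadjusted p below 0.05 was reached by 47 of 127 (37.0%, 25 higher and 22 lower) against 24.6% of all genes, and the median log2 fold change was 0.0069. After the correction 83 of 127 (65.4%) were positive, against 51.7% of all genes. The share ran from 41.2% in the other tissue-regulated factors to 89.5% in the core snRNP and Sm genes. An unadjusted p below 0.05 was then reached by 32 (25.2%, 25 higher and 7 lower), against 13.9% of all genes. Without both mice numbered 1 the number called was 60 of 127 (28.3% of all genes), without WT mouse 1 it was 46 (17.6%), without Ube3am-/p+ mouse 1 it was 31 (12.5%), and without any of the other 4 mice it was 0.

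Mbnl1 and Mbnl2 encode muscleblind-like proteins, which set the late developmental pattern of many exons, and Qk encodes the glial regulator Quaking. Mbnl1 was at 94.7, 108 and 117 CPM in WT mice and 85.2, 67.3 and 65.0 CPM in Ube3am-/p+ mice, with -0.54 ± 0.11 (SE, edgeR adjusted p = 0.0362) and -0.24 (edgeR adjusted p = 0.141) after the correction. Mbnl2 was at 298, 339.8 and 356 CPM against 273, 231 and 243 CPM, with -0.39 ± 0.09 (SE, edgeR adjusted p = 0.0410) and -0.34 after the correction, where it was still called (edgeR adjusted p = 0.0299). That call was lost with the correction on coding transcripts and with the correction and the replicate block, where no lower gene of these lists was called. Qk was at 350.0, 437 and 454 CPM against 324, 263 and 266 CPM, with -0.52 ± 0.11 (SE, edgeR adjusted p = 0.0362) and -0.24 (edgeR adjusted p = 0.122) after the correction. The oligodendrocyte and astrocyte marker sums given above were lower in Ube3am-/p+ mice too, though 3 of 6 and 2 of 6 of these markers were higher. The part of these cell types in the value of Qk was not tested. The genotypes did not overlap for any of the 3, and mouse 1 was the lowest in WT and the highest in Ube3am-/p+ for each. Their list, the other tissue-regulated splicing factors, had a median of -0.23 as counted and of -0.10 after the correction. As counted, 9 of its 17 genes (52.9%) had an unadjusted p below 0.05, 8 of them lower, against 24.6% of all genes.

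Among the lists of the constitutive machinery the medians lay on both sides of 0. Snrpd3, an Sm protein of the spliceosomal snRNP core, was at 24.4, 21.2 and 21.3 CPM in WT mice and 27.8, 37.7 and 37.3 CPM in Ube3am-/p+ mice, with 0.64 ± 0.14 (SE, edgeR adjusted p = 0.0362) and 0.71 after the correction (edgeR adjusted p = 0.0110). The core snRNP and Sm genes had a median of 0.19 with 14 of 19 positive, and 17 of 19 after the correction. The factors of the U2 snRNP and the 3′ splice site had a median of 0.15 with 15 of 17 positive, and of 0.09 with 14 of 17 after the correction. The U4/U6.U5 tri-snRNP, catalytic and Prp19 complex genes had a median of -0.04 with 11 of 27 positive. An unadjusted p below 0.05 was reached by 7 of them (25.9%, 2 higher and 5 lower), against 24.6% of all genes. The exon junction complex had a median of 0.02 with 3 of 5 positive, and no gene of either list was called. The differences between lists were not tested. Of the 3′ splice site factors, U2af2, the subunit that binds the polypyrimidine tract, was at 131, 104 and 100.1 CPM against 127, 157 and 162 CPM, with 0.43 (edgeR adjusted p = 0.0599). U2af1, its partner at the AG of the splice site, was at 34.2, 27.8 and 31.4 CPM against 35.5, 42.2 and 41.8 CPM without overlap, with 0.38 (edgeR adjusted p = 0.0741). After the correction U2af2 was at 0.32 and U2af1 at 0.17. Sf3b5, a small subunit of the SF3B complex that is named because of its value after the correction, was at 0.47 as counted and was called after the correction, at 0.60 (edgeR adjusted p = 0.0483).

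**Figure D5:**
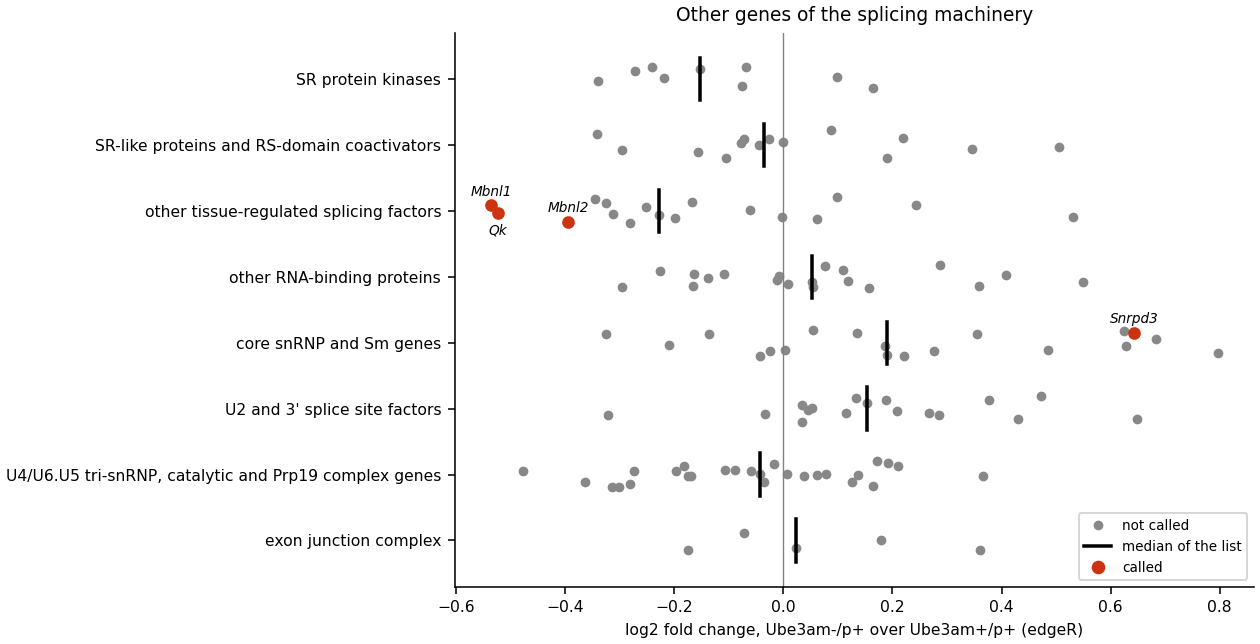
Log2 fold change, Ube3am-/p+ over WT, of the 127 other splicing genes tested, by list (grey points), with the median of each list as a vertical line and the 4 called genes in red. Mbnl1, Qk and Mbnl2 lie at -0.54, -0.52 and -0.39 and Snrpd3 at 0.64.

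The 9 kinases that phosphorylate SR proteins had a median of -0.15 with 7 negative, and 0.040 with 7 positive after the correction, and none was called. Clk1, a nuclear kinase of SR proteins, was at 115, 153 and 156 CPM in WT mice and 118, 103 and 110.2 CPM in Ube3am-/p+ mice, with -0.34 (edgeR adjusted p = 0.0800) as counted and -0.03 after the correction. Clk4, its relative, was at 65.5, 72.7 and 78.7 CPM against 62.3, 57.9 and 63.8 CPM without overlap, with -0.22 (edgeR adjusted p = 0.176) and 0.08 after it. Srpk2, the SR protein kinase abundant in neurons, was at 207, 232 and 258 CPM against 205, 187 and 178 CPM without overlap, with -0.27 (edgeR adjusted p = 0.0938) and 0.02 after it. The last 2 changed sign with the correction, as did Srpk1, at 58.3, 55.4 and 52.1 CPM against 56.4, 50.8 and 49.3 CPM (-0.07 as counted, 0.08 after it).

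None of the SR-like genes and RNA-binding proteins described next was called. Tra2a, which binds GAA-rich exon enhancers, was at 76.6, 102 and 110.1 CPM in WT mice and 75.6, 70.6 and 78.4 CPM in Ube3am-/p+ mice, with -0.34 (edgeR adjusted p = 0.0973) and -0.20 after the correction. Its paralog Tra2b was at 62.5, 67.4 and 65.1 CPM against 60.9, 64.3 and 67.5 CPM, with 0.00032 (edgeR adjusted p = 0.998) as counted. After the correction Tra2b was at 0.28 (edgeR adjusted p = 0.126). Srrm4, the neuronal activator of microexons, was at 56.0, 63.7 and 57.7 CPM against 54.2, 55.6 and 47.5 CPM, with -0.16 (edgeR adjusted p = 0.339). In Srrm4 every WT mouse lay above every Ube3am-/p+ mouse. Tardbp, which encodes TDP-43, was at 242, 252 and 268 CPM against 231, 228 and 212 CPM without overlap, with -0.17 (edgeR adjusted p = 0.212) as counted and 0.10 after the correction. Snrpn, the Sm protein gene of the imprinted region that also holds Ube3a, was listed at only 1.23 to 3.00 CPM, with 0.22 ± 0.34 (SE, edgeR adjusted p = 0.723).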

How the data were processed

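Hippocampal RNA of 3 WT and 3 Ube3am-/p+ mice was sequenced, 1 library from each. The deposited values are counts by the authors, whole numbers of reads per gene symbol, without normalization or pooling. The submitters' processing notes name STAR 2.7.4a, HTSeq and mm10. The annotation and the strand setting are not given in the sources used here, so reads of antisense partners cannot be told apart. Counts on genes made up 39.0% to 41.8% of the reads listed, and lines naming no gene were left out.

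Genes kept by filterByExpr were tested with edgeR 4.0.16 in R 4.3.3 (TMM, robust quasi-likelihood F test for genotype, no other factor, two-sided). A gene was called where it changed over 1.2-fold with p, adjusted by Benjamini-Hochberg, below 0.05. The biological coefficient of variation was 0.102. For the correction, the deviation of each gene from its mean was fitted per library by natural splines (5 degrees of freedom) on GC content and log2 length, both taken from the longest transcript of GENCODE M21 on GRCm38, for 14201 tested genes. Shared stretches are 75-base runs of a transcript that also occur in transcripts of other genes. No 2 libraries agreed within sampling noise (chi-square per degree of freedom 3.78 to 21.0).

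The alternatives were DESeq2 1.42.0, other scaling factors and filters, the replicate number as a block, the correction with and without the block, other thresholds and leaving out each mouse. Leaving out both mice numbered 1 and the other 2 forms of the correction were added after seeing the data. The members and lists were chosen with earlier results of these data known. Genes were named by a rule, which took all genes of the 5 small families, called genes, the genes kept out by the filter, and for the SR and hnRNP genes that of most CPM and up to 4 largest rises and falls without overlap, together with a set of other splicing genes given by name, of which 1 is not reported here. The rest were named after their values were seen. The steps were tested on simulated data.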

Additional observations from a re-analysis of the deposited data

How the results depend on the processing

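The number of splicing factor genes called was 1 as reported, 7 with DESeq2, 2 with RLE factors, 0 with upper-quartile factors, 8 without a filter on low counts, 2 with at least 10 counts in every library and 10 at an unadjusted p below 0.05 with the fold threshold. It was 0 with the GC and length correction, 0 with that correction and the block, and 0 with GC content alone. Leaving out each mouse gave 0 to 14, and leaving out both mice numbered 1 gave 19. The number of other splicing genes called was 4 as reported, 24 with DESeq2, 22 without a filter, 40 at an unadjusted p below 0.05 with the fold threshold, 1 with the correction and the block, 2 with the correction on coding transcripts, 60 without both mice numbered 1, and 0 to 46 without 1 mouse. Library size scaling left both numbers within 1.5 times. The median log2 fold change of the splicing factor genes, -0.02, was -0.039 with library size only, -0.0017 without a filter, 0.12 with the correction, 0.11 with the correction and the block, 0.12 with GC content alone, 0.081 on coding transcripts, 0.035 without both mice numbered 1 and -0.036 to 0.019 without 1 mouse. Ube3a, at -0.58, was at -0.18 with the correction, also with the block, and at -0.73 to -0.48 without 1 mouse. Its edgeR adjusted p without 1 mouse ranged from 0.000736 to 0.251, and its call was lost without mouse 2 or 3 of either genotype.

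The replicate numbers are shared by the genotypes, but nothing in the labels pairs the mice, and the deviations of same-numbered mice had correlations of -0.28, -0.18 and -0.31. With the replicate number as a block, 0 splicing factor genes and 0 other splicing genes were called, and Ube3a was at -0.57 (edgeR adjusted p = 0.216). The block leaves fewer residual degrees of freedom.

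With the correction, and with the correction together with the block, the sign of the log2 fold change was reversed in Srsf7 (0.036 and 0.035), Srsf1 (0.14 and 0.13), Hnrnpu (0.22 in both), Celf2 (0.039 and 0.040), Celf3 (-0.031 and -0.030), Elavl2 (0.045 and 0.047), Nova1 (0.25 and 0.24), Ptbp2 (0.18 and 0.17), Srpk1 (0.085 and 0.090), Srpk2 (0.023 in both), Clk4 (0.083 and 0.081) and Tardbp (0.10 and 0.099). Rbfox2 was at -0.015 with library size only and -0.000183 with at least 10 counts in every library, and Tra2b at -0.018, -0.0022 and, with the block, -0.0015. Without 1 mouse, Nova1 ranged from -0.33 to 0.034, Nova2 from -0.0058 to 0.20, Ptbp1 from -0.12 to 0.078, Rbfox2 from -0.057 to 0.052, Tra2b from -0.043 to 0.047 and Snrpn from -0.054 to 0.49. The cause of these differences was not tested.

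The libraries held 7293272 to 11314409 counts on genes, and an adjusted p above the threshold does not show that a gene was alike in both genotypes. GC content moved with genotype in mice 2 and 3. Values after the correction are therefore given beside those as counted for many of the named genes, and the others are given as counted only.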
